A study of Homo sapiens with 8 samples.

Results

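The genes described here encode the proteasome, and were taken as every row of the expression table whose symbol is PSM, a letter from A to G and a number, leaving out PSMB8 and PSMB9. This gave 45 genes of the 17056 in the table. They comprise 16 genes of the 20S core, 17 of the 19S cap, 7 assembly chaperones, 4 activators and PSMF1. PSMA8, an alpha subunit known from testis, had a single read in the second knockdown control library and 0 reads in the other 7, so 44 genes were tested. Expression was measured by RNA-seq in A549, a cell line long established from a human lung adenocarcinoma. AFAP1-AS1, a long non-coding RNA, was either overexpressed and compared with a vector control, or knocked down (ASO in the titles) and compared with a negative control for the knockdown (ASONC in the titles), with 2 libraries in each of these 4 groups. All groups share the A549 background, which is a single cell line. The labels name no vector, promoter, oligonucleotide sequence, dose or time, and nothing in them says that the replicates were separate cultures, so p-values measure only the spread between these libraries. The row of AFAP1-AS1 is not analysed here, so the manipulation itself was not checked.

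The proteasome is the protease that degrades proteins tagged with ubiquitin. Its barrel, the 20S core, is built of stacked rings of alpha subunits (PSMA genes), which gate the entry, and beta subunits (PSMB genes), of which PSMB5, PSMB6 and PSMB7 carry the cutting sites. The 19S cap recognises tagged proteins through receptors, removes the ubiquitin, and unfolds the substrate with a ring of ATPases (PSMC genes) held by scaffold and lid subunits (PSMD genes). In cells exposed to interferon the catalytic subunits are exchanged for PSMB8, PSMB9 and PSMB10, and the core can take up another ring, PA28, made of PSME1 and PSME2, an arrangement known for producing peptides for antigen presentation. The core and the cap are each completed with the help of dedicated chaperones. Coordinated transcription of the subunits is a known task of the transcription factor NFE2L1.

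Library depth was similar across the 8 libraries. Whole reads recovered from the FPKM values (fragments scaled by gene length and library size) summed to between 33662221 and 37508996 per library, and a tested proteasome gene had between 280 and 17450 reads in a library. The knockdown control libraries stood apart, with 1435 and 1341 genes at 0 against 2205 to 2327 in the other 6. Summed FPKM was between 371927 and 379733 in the vector control and overexpression libraries, and between 421591 and 437924 in the knockdown control and knockdown libraries. The keratins KRT8, KRT18 and KRT7 of epithelium were abundant, at 956 FPKM or more in every library, whereas EPCAM stayed below 1 FPKM. Between the controls the 3 keratins rose by 0.24 to 0.41 on the log2 scale, while CDH1, the epithelial cadherin, fell from 4.08 and 3.55 FPKM with the vector to 1.44 and 0.841 FPKM in the knockdown control (-1.18 ± 0.14, limma adjusted p = 1.01e-05) and was at 1.41 and 1.78 FPKM with knockdown. Of the immune markers CD3E was not analysed here, PTPRC was at or near 0, and CD68 rose from 49.5 ± 0.97 FPKM in the vector control to 89.6 ± 0.63 in the knockdown control (SD, n = 2). The 3 endothelial markers summed to 1.32 to 1.69 FPKM in the vector control, 0.971 to 1.16 with overexpression, 0.0899 to 0.296 in the knockdown control and 0.172 to 0.228 FPKM with knockdown. The 4 fibroblast markers summed to 0.59 to 0.635, 0.518 to 0.66, 2.5 to 2.54 and 1.98 to 2.25 FPKM in the same order, most of it COL1A1, which rose between the controls (1.15 ± 0.09, limma adjusted p = 5.36e-07), with DCN at or near 0. These markers thus moved with the difference between the controls, and their part in the results was not tested. Because these are bulk libraries, a lower level in every cell and fewer expressing cells cannot be told apart.

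**Figure D1:**
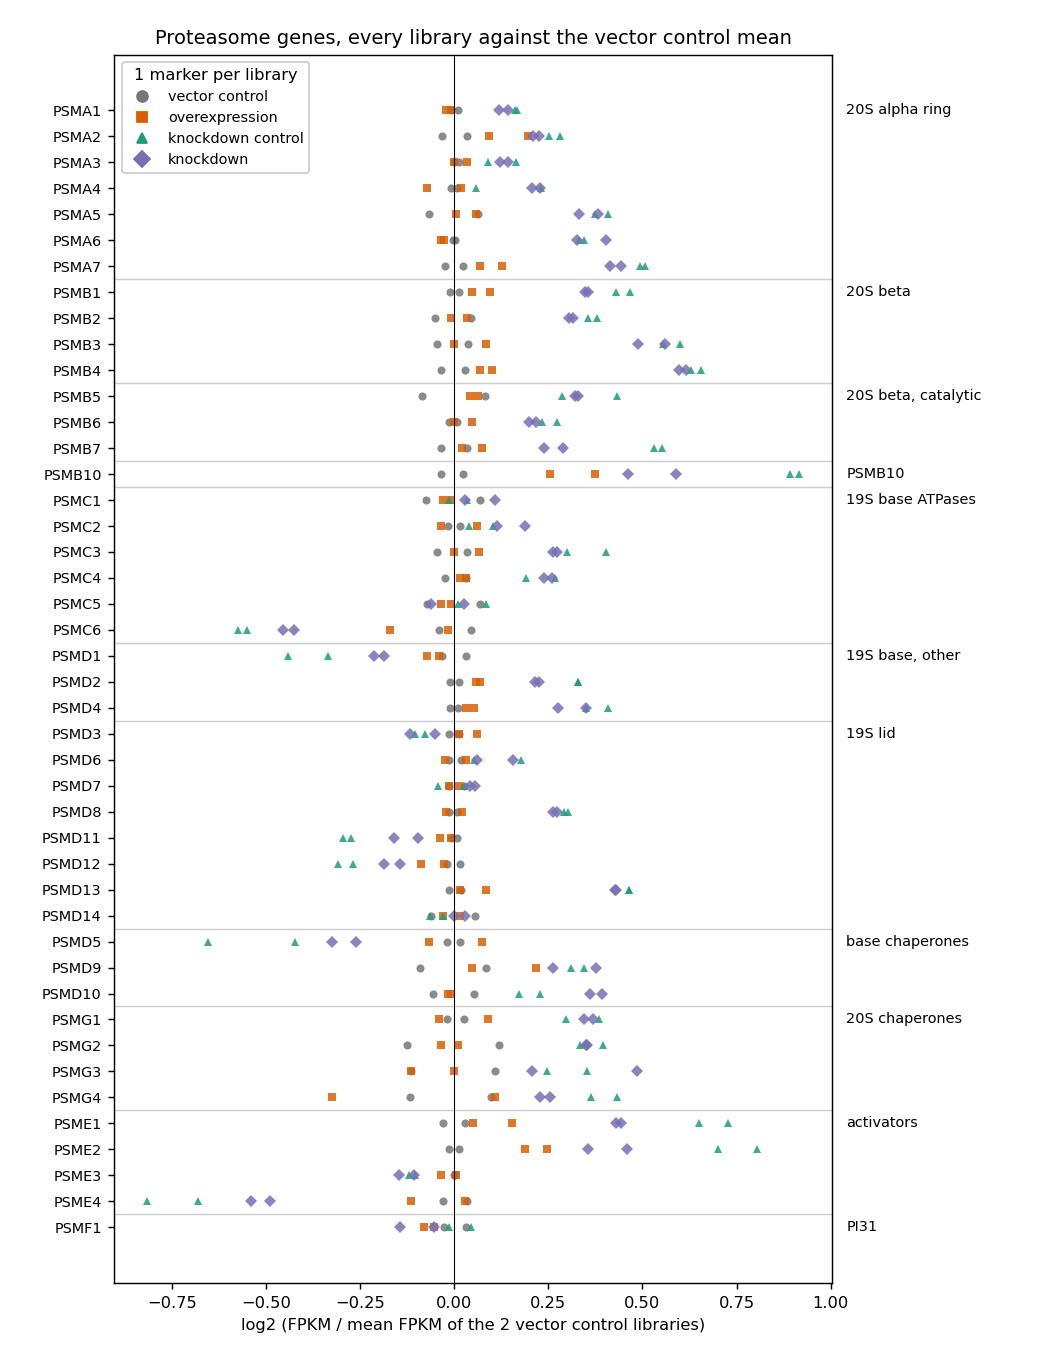
Each of the 44 tested proteasome genes is a row, grouped by its place in the complex, and each marker is a library, placed by the log2 ratio of its FPKM to the mean of the 2 vector control libraries. Overexpression libraries stay close to the vector control for most genes, while the knockdown control and knockdown libraries lie to the right for the 20S core and to both sides for the cap; PSMB10, PSME1 and PSME2 lie farthest right and PSME4 farthest left.

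Proteasome genes were among the more strongly expressed genes of these cells. With the vector control the 44 tested genes had a median level of 75.5 FPKM, and all 10648 tested genes one of 9.26 FPKM. FPKM is scaled by gene length, so a comparison of levels between genes depends on the length used for each. Subunits that are present in equal numbers in the assembled particle did not have equal FPKM. The 14 constitutive 20S genes ran from 24.4 ± 1.5 FPKM for PSMA5 to 250 ± 5.77 FPKM for PSMA7 (SD, n = 2), a 10.2-fold range. Their lengths differ too, with 3815 bases for PSMA5 and 962 bases for PSMA7. The vector control libraries held 3005 and 3580 reads of PSMA5, and 7983 and 9008 reads of PSMA7. Longer genes had lower levels, with a Spearman coefficient of -0.60 between level and gene length over the 44 genes, which come from the same libraries. Gene length here is the length recovered from the FPKM values, and whether it is that of the expressed transcripts was not tested.

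Within the core, the cutting subunits spanned a 1.57-fold range, with PSMB5 the lowest. PSMB5, which carries the chymotrypsin-like site, had 137 ± 11.5 FPKM, PSMB7, with the trypsin-like site, 212 ± 6.97, and PSMB6, with the caspase-like site, 216 ± 2.36 FPKM in the vector control. PSMB6 and PSMB7 did not differ beyond the spread of their replicates. Among the other beta subunits PSMB2 was lowest, at 38.2 ± 1.76 FPKM, and PSMB4 highest, at 207 ± 6.0 FPKM. PSMB10, the interferon-inducible counterpart of PSMB7, had 12.5 ± 0.39 FPKM, so that the ratio of PSMB10 to PSMB7 was 0.0588 ± 0.0038.

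The cap spanned a 7.73-fold range, from the ATPase PSMC6 at 25.9 ± 1.07 FPKM to the lid subunit PSMD8 at 201 ± 2.63 FPKM. PSMC4 was the highest ATPase, at 177 ± 5.32 FPKM. Of the base subunits that are not ATPases, the scaffold PSMD1 had 61.6 ± 2.02 FPKM and the ubiquitin receptor PSMD4 138 ± 1.43 FPKM. The lid reached down to PSMD12, at 30.7 ± 0.44 FPKM. Assembly chaperones were at 47.4 FPKM or less in the vector control: the base chaperones ran from PSMD9 at 24.5 ± 2.11 to PSMD10 (gankyrin) at 47.4 ± 2.53 FPKM, and those of the core from PSMG4 at 1.29 ± 0.13 to PSMG2 at 28.8 ± 3.43 FPKM. The length of PSMG4 recovered from the FPKM values is 7209 bases. In the GENCODE 29 annotation it shares exonic bases with SLC22A23 and TUBB2B on the opposite strand, so its low value is uncertain. Among the activators PSME4 (PA200) was lowest, at 25.0 ± 0.75 FPKM, and PSME2 highest, at 107 ± 1.0 FPKM. PSMF1 (PI31), a regulator that binds the core, had 22.1 ± 0.62 FPKM. The replicates of a group differed little: the median coefficient of variation of the tested proteasome genes was between 1.47% and 2.84%, and between 3.74% and 3.93% for all tested genes.

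The first question was what gain of AFAP1-AS1 does to these transcripts. Overexpression changed 0 of the 44 genes at a limma adjusted p below 0.05, and of all 10648 genes tested 0.0657% were called. Unadjusted limma p-values were below 0.05 for 6 of the 44 and for 738 of all 10648 genes tested. Limma-voom on the recovered reads also called 0 of the 44. The median log2 fold change was 0.01 over the 44 genes and 0.00 over all tested genes. Both overexpression libraries lay above both vector control libraries for 9 of the 44 and below them for 5, where all tested genes gave 18.2% and 16.9%. Values of single genes lay between -0.09 for PSMC6 and 0.29 for PSMB10.

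The 2 smallest p-values in this comparison belonged to PSMB10 and PSME2, both inducible by interferon. PSMB10 was at 12.7 and 12.2 FPKM with the vector and at 14.9 and 16.2 FPKM with overexpression. The groups did not overlap, but the difference of 0.29 ± 0.06 (log2, SE) was not called (limma adjusted p = 0.141). PSME2 had 108 and 106 FPKM in the vector control and 122 and 127 FPKM with overexpression, a difference of 0.22 ± 0.05 (limma adjusted p = 0.153). PSME1, its partner in PA28, had 82.5 and 79.2 FPKM and then 83.8 and 89.9 FPKM, a difference of 0.10 ± 0.05 (limma adjusted p = 0.703). PSMB8 and PSMB9, which stand outside the set, had differences of 0.20 ± 0.07 and 0.33 ± 0.08 that did not pass either (limma adjusted p = 0.589 and 0.308). Among the other genes the smallest p-values belonged to PSMA2 (0.14 ± 0.04) and PSMA7 (0.10 ± 0.03) of the alpha ring and PSMB4 (0.08 ± 0.03) of the beta ring, with limma adjusted p-values of 0.461, 0.583 and 0.653. In the cap the smallest p was that of PSMD2 (0.06 ± 0.03, limma adjusted p = 0.753) and among the chaperones that of PSMD9 (0.13 ± 0.07, limma adjusted p = 0.793), while PSMF1 had -0.06 ± 0.05 (limma adjusted p = 0.903).

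Promoters of the 3 genes PSMB10, PSME1 and PSME2 are shown because interferon is known to induce them. The genes were chosen with earlier results of these data known. PSMB10 (minus strand) spans 67934502 to 67937087 of chromosome 16. PSME1 (plus strand) and PSME2 (minus strand) are neighbours, spanning 24136158 to 24138967 and 24143362 to 24147570 of chromosome 14 (GRCh38, annotated by GENCODE release 29). The windows are from RefSeq (GRCh38.p14) and hold 250 bases before and 50 bases after the start that RefSeq gives each gene, 5′ to 3′ on the strand of the gene, at chr16:67936801-67937100 (minus), chr14:24135944-24136243 (plus) and chr14:24146561-24146860 (minus). Capitals mark matches on either strand to the core of the interferon-stimulated response element (GAAA, then any 2 bases, then GAAA) or to TGACNNNGC, the core of the antioxidant response element that NFE2L1 and NFE2L2 bind; no match overlaps another in these windows. The RefSeq starts lie 237, 36 and 960 bases inside the GENCODE spans of PSMB10, PSME1 and PSME2, which reach to the outermost transcript, so the whole window of PSME2 lies within its span.
PSMB10: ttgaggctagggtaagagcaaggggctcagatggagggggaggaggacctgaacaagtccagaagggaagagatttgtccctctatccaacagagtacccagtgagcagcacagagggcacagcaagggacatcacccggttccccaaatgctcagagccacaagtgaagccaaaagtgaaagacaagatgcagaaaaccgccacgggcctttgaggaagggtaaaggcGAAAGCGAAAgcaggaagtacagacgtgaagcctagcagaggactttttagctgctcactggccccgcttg
PSME1: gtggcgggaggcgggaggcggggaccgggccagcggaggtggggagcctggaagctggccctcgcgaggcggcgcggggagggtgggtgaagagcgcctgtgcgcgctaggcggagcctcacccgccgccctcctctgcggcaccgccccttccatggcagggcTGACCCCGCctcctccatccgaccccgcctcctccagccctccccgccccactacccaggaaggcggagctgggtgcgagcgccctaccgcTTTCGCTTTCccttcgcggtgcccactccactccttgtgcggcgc
PSME2: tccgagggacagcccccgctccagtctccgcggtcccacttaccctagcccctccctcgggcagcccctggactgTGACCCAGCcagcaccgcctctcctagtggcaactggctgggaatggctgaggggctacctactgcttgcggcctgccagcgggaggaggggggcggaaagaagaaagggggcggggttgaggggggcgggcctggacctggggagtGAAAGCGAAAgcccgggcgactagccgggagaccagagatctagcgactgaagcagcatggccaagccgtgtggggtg
The interferon-type core began 21 bases before the RefSeq start in PSMB10 and 28 bases before it in PSME2, and in PSME1 it began at base 6 after the start, on the opposite strand. Of the 45 proteasome genes 39 had a window, and 6 of the 39 (15.4%) held this core, against 2.61% of the 8702 windows of tested genes and 3.65% of all 27305 windows. The other 3 were PSMA4, PSMB4 and PSMG4. The antioxidant-type core was in 12 of 39 windows (30.8%), against 15.3% for tested genes, and CCAAT, the NF-Y box, in 17 of 39 (43.6%), against 37%. TTCNNNGAA, the gamma-activated site, was in 5 of 39 windows (12.8%), against 6.16% for tested genes. A match of letters is a description and shows no binding.

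The second question was what loss of AFAP1-AS1 does. Against its own control, the genes called lower with knockdown included PSMB10, both genes of PA28 and the cutting subunit PSMB7. Those called higher were cap and chaperone genes and the activator PSME4, with smaller changes than these. At a limma adjusted p below 0.05, 10 of 44 genes were called, 5 higher and 5 lower. Of all genes tested 22.2% were called (11.3% higher and 10.9% lower), so the number of calls was near the background. The genes named are therefore a description and not a result about the proteasome genes as a set. The median log2 fold change was -0.02 over the 44 genes and 0.02 over all tested genes. Libraries of the groups did not overlap for 10 genes that were higher and 17 that were lower, where all tested genes gave 34.4% and 28.1%.

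PSMB10 fell from 23.6 and 23.2 FPKM in the knockdown control libraries to 18.8 and 17.2 FPKM with knockdown. Both knockdown libraries were lower than both controls, and the log2 fold change was -0.36 ± 0.06 (SE, limma adjusted p = 0.00162). PSME2 fell from 187 and 174 FPKM to 147 and 137 FPKM, a change of -0.35 ± 0.05 (limma adjusted p = 0.000302). PSME1 fell from 127 and 134 FPKM to 109 and 110 FPKM, a change of -0.25 ± 0.05 (limma adjusted p = 0.00256). PSME3, which forms a separate nuclear activator of its own, had 81.4 and 82.3 FPKM and then 79.9 and 82.2 FPKM, so its groups overlapped (limma adjusted p = 0.818). PSMB8 and PSMB9 fell as well, with values of -0.41 ± 0.07 and -0.53 ± 0.08 (limma adjusted p = 0.0025 and 0.000999). CD68, the one abundant immune marker, moved the same way, from 89.2 and 90.1 FPKM to 65.4 and 64 FPKM (-0.46 ± 0.04, limma adjusted p = 9.4e-06), while PTPRC was at or near 0.

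PSMB7 was the only constitutive core gene called in this comparison. It fell from 311 and 306 FPKM to 259 and 250 FPKM, a change of -0.28 ± 0.04 (limma adjusted p = 0.000365). The other 13 constitutive core genes had values between -0.09 for PSMB1 and 0.07 for PSMA4. PSMB5 and PSMB6, the other cutting subunits, had -0.03 ± 0.06 and -0.05 ± 0.03 (limma adjusted p = 0.71 and 0.346). PSMB10 and PSMB7 thus both fell, and the ratio of PSMB10 to PSMB7 was 0.0761 and 0.0758 in the control libraries and 0.0724 and 0.0689 in the knockdown libraries.

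Knockdown raised 2 cap genes, PSMD1 (0.18 ± 0.05, limma adjusted p = 0.0155) and PSMD11 (0.15 ± 0.04, limma adjusted p = 0.0171), and lowered the scaffold PSMD2 (-0.11 ± 0.03, limma adjusted p = 0.0349). PSMD1 had 48.8 and 45.4 FPKM in the control and 54.1 and 53.1 FPKM with knockdown. PSMD11, which clamps the lid to the core, had 62.6 and 61.7 FPKM and then 70.8 and 67.7 FPKM, and PSMD2 157 in both control libraries and then 145 and 146 FPKM. None of the 6 ATPase genes was called, and the smallest p among them was that of PSMC6 (0.11 ± 0.06, limma adjusted p = 0.199). Among chaperones PSMD5 rose from 19.5 and 22.9 FPKM to 24.5 and 25.6 FPKM (0.24 ± 0.07, limma adjusted p = 0.0346) and PSMD10 from 53.4 and 55.5 FPKM to 62.2 and 60.9 FPKM (0.17 ± 0.05, limma adjusted p = 0.0201). The core chaperones PSMG1 to PSMG4 were not called and lay between -0.09 and 0.05. PSME4 rose from 15.6 and 14.2 FPKM to 17.2 and 17.8 FPKM (0.22 ± 0.06, limma adjusted p = 0.0264), and PSMF1 had -0.11 ± 0.05 (limma adjusted p = 0.154).

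These calls were kept to different degrees when 1 library was left out. Such a fit has fewer libraries to estimate the spread, so a call can be lost while its value hardly moves. PSMB10, PSMB7, PSME1 and PSME2 were called in each of the 4 fits that left out 1 knockdown control or knockdown library. PSMD5 was not called without knockdown control replicate 1 or either knockdown library (0.13 to 0.27, limma adjusted p between 0.0741 and 0.25). PSME4 and PSMD1 were not called without knockdown control replicate 2 or either knockdown library (PSME4 0.16 to 0.24, limma adjusted p between 0.0677 and 0.177; PSMD1 0.13 to 0.20, limma adjusted p between 0.0584 and 0.122). PSMD10 was not called without knockdown control replicate 1 or either knockdown library (0.15 to 0.19, limma adjusted p between 0.0654 and 0.111). PSMD11 was not called without knockdown control replicate 2 or knockdown replicate 1 (0.14 and 0.12, limma adjusted p = 0.0855 and 0.119). PSMD2 was not called without any of the 4 libraries (-0.12 to -0.10, limma adjusted p between 0.102 and 0.142).

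Gene length and GC content moved with this comparison. The 5 genes called lower had a median length of 977 bases and the 5 called higher one of 3850 bases. When a smooth trend on length and GC content was removed from each library, 10 genes were again called (17.6% of all tested genes), of which 5 were shared: PSMB10 (-0.18), PSMB7 (-0.16), PSME2 (-0.20), PSMD10 (0.16) and PSMD11 (0.16). PSME1 then had -0.11 (limma adjusted p = 0.0964).

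**Figure D2:**
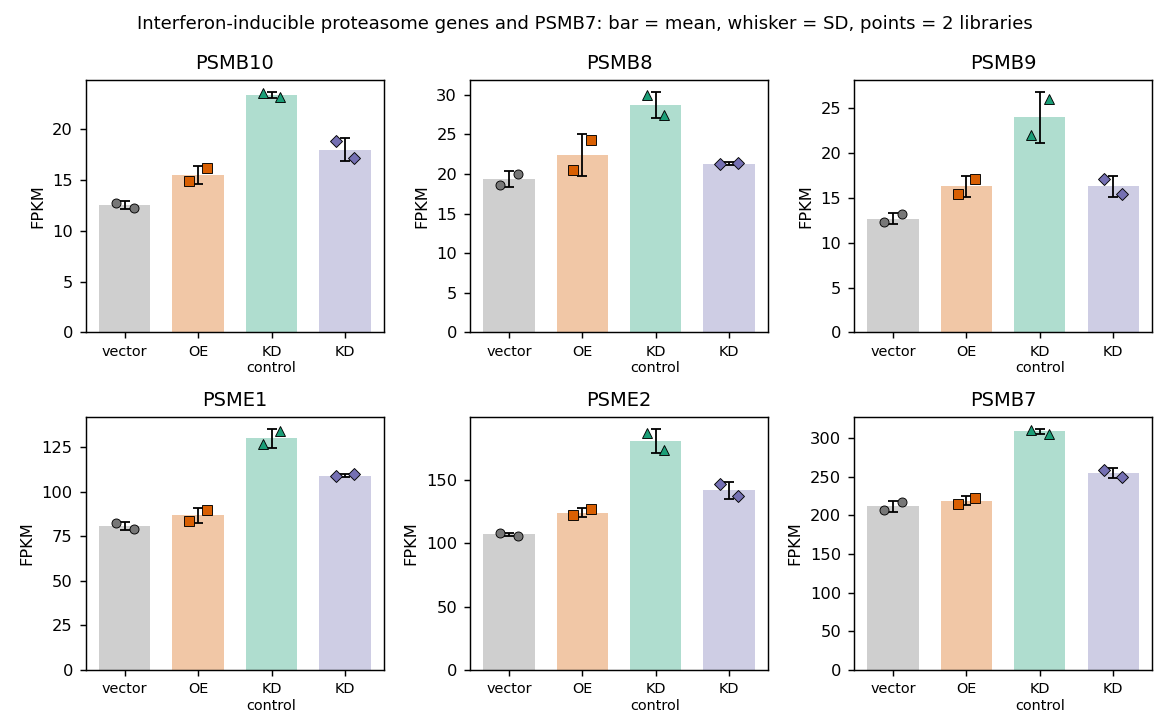
FPKM (linear axis from 0) of PSMB10, PSME1, PSME2 and PSMB7, with PSMB8 and PSMB9 beside them; bars are means, whiskers SD and points the 2 libraries of each group (OE, overexpression; KD, knockdown). In each panel the knockdown control libraries are the highest and the knockdown libraries lie below them; for PSMB10 the overexpression libraries, at 14.9 and 16.2 FPKM, lie above the vector control.

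The third comparison asked whether gain and loss differ in effect, as the overexpression effect minus the knockdown effect. It called 7 of 44 genes, 6 above 0 and 1 below, where 10.2% of all tested genes were called (6.19% above and 4.02% below). PSMB10 had the largest value, 0.66 ± 0.09 (limma adjusted p = 0.000639), followed by PSME2 (0.56 ± 0.06, limma adjusted p = 0.00021), PSME1 (0.35 ± 0.06, limma adjusted p = 0.00549) and PSMB7 (0.32 ± 0.05, limma adjusted p = 0.00291). PSMB8 and PSMB9 had 0.61 ± 0.10 and 0.86 ± 0.12 (limma adjusted p = 0.0038 and 0.000823). These 4 proteasome genes were called without each of the 8 libraries in turn. PSMD2 (0.17 ± 0.05), the alpha subunit PSMA7 (0.17 ± 0.05) and PSMD1 (-0.24 ± 0.07) were closer to the threshold, with limma adjusted p-values of 0.0371, 0.0484 and 0.0392.

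The call of PSMD2 was lost without any of the 8 libraries (0.17 to 0.18, limma adjusted p between 0.0649 and 0.105). PSMA7 kept its call only without overexpression replicate 1, and otherwise had 0.14 to 0.19 (limma adjusted p between 0.0523 and 0.163). PSMD1 kept its call only without knockdown control replicate 1, and otherwise had -0.27 to -0.19 (limma adjusted p between 0.0526 and 0.127). Without overexpression replicate 1 PSMA2 had 0.24 and was called in addition. With the length and GC trend removed 4 genes were called (7.42% of all tested genes), PSMB10 (0.44), PSME2 (0.39), PSMB7 (0.19) and also PSMA2 (0.21), while PSME1 had 0.19 (limma adjusted p = 0.0854). The overexpression and knockdown effects behind these values were 0.29 and -0.36 for PSMB10, 0.22 and -0.35 for PSME2, 0.10 and -0.25 for PSME1, and 0.05 and -0.28 for PSMB7, of which the overexpression effects did not pass on their own.

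The 2 controls differed from each other in more proteasome genes than were called for either manipulation. Between the knockdown control and the vector control 35 of 44 genes were called, 28 higher and 7 lower, and 68.6% of all tested genes were called (36.8% higher and 31.8% lower). The labels do not say how the 2 controls differ in handling, and that handling cannot be told apart from their group. Libraries did not overlap for 31 genes that were higher and 8 that were lower, against 45.4% and 39.4% of all tested genes. The median log2 fold change was 0.26 over the 44 genes and 0.04 over all tested genes. Scaling to TPM, where every library has the same sum, moved the median of all genes to -0.16 and that of the 44 genes to 0.06, with 17 higher and 15 lower, against 22.2% and 47.8% of all tested genes. Relative to the median of all genes the 44 lay at 0.22 with FPKM, 0.22 with median-of-ratios scaling and 0.23 with TPM. With the length and GC trend removed this was 0.05, and 19 were higher and 12 lower, against 28.8% and 30% of all tested genes.

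The core was higher in the knockdown control throughout when measured as FPKM. Over all tested genes 36.8% were called higher and 31.8% lower with FPKM, and 22.2% and 47.8% with TPM. With the length and GC trend removed the shares were 28.8% and 30%. All 14 constitutive 20S genes were called higher (median 0.36, log2), whereas with TPM 9 were higher and 1, PSMA3, was lower (median 0.14), and with the length and GC trend removed 8 were higher and 1, PSMB6, was lower (median 0.14). PSMB4 had 202 and 211 FPKM in the vector control and 326 and 320 FPKM in the knockdown control, a rise of 0.64 ± 0.03 (limma adjusted p = 2.14e-08). Next came PSMB3 (0.58 ± 0.04), PSMB7 (0.54 ± 0.04), PSMA7 (0.50 ± 0.03) and PSMB1 (0.44 ± 0.04). The smallest rises were in PSMA3 (0.12 ± 0.04, limma adjusted p = 0.0115) and PSMA4 (0.14 ± 0.05, limma adjusted p = 0.0353). PSMA3 was not called without vector control replicate 2 (0.12, limma adjusted p = 0.0504) or knockdown control replicate 2 (0.09, limma adjusted p = 0.106), and PSMA4 not without either vector control library (0.15 and 0.14, limma adjusted p = 0.0833 and 0.112) or knockdown control replicate 2 (0.06, limma adjusted p = 0.365). With the trend removed PSMB4 had 0.21, PSMB1 0.23 and PSMB7 0.09, all still called, and PSMB3 and PSMA7 changed sign to -0.02 and -0.06, neither called. For PSMA5, a longer gene of 3815 bases, the correction raised the value: it rose from 23.3 and 25.5 FPKM to 31.6 and 32.4 FPKM (0.38 ± 0.05, limma adjusted p = 4.89e-05), and had 0.64 with the trend removed.

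PSMB10 and PA28 had the largest rises between the controls among the 44 genes with FPKM, median-of-ratios scaling and TPM, but not with the length and GC trend removed, where PSMA5, PSMB2 and PSMA6 had the highest values (0.64, 0.53 and 0.50). PSMB10 rose from 12.7 and 12.2 FPKM to 23.6 and 23.2 FPKM (0.86 ± 0.06, limma adjusted p = 1.84e-07), PSME2 from 108 and 106 to 187 and 174 FPKM (0.75 ± 0.05, limma adjusted p = 5.73e-08) and PSME1 from 82.5 and 79.2 to 127 and 134 FPKM (0.68 ± 0.05, limma adjusted p = 1.14e-07). These 3 were also called with TPM (0.68, 0.54 and 0.47) and with the length and GC trend removed (0.24, 0.21 and 0.16). The other activators fell: PSME4 from 25.6 and 24.5 to 15.6 and 14.2 FPKM (-0.71 ± 0.06, limma adjusted p = 1.00e-06), and PSME3 from 88.6 and 88.4 to 81.4 and 82.3 FPKM (-0.11 ± 0.04, limma adjusted p = 0.0196). PSME3 was not called without either vector control library or knockdown control replicate 1 (-0.11, -0.11 and -0.10, limma adjusted p = 0.0647, 0.0577 and 0.0772). The ratio of PSME2 to PSME3 within a library was 1.22 and 1.20 in the vector control and 1.41 and 1.43 with overexpression. It was 2.30 and 2.12 for the control of the knockdown and 1.84 and 1.67 after it. No library-wide scaling can change this ratio. PSME2 is 793 bases long and PSME3 3548 bases, so the ratio can still move with gene length.

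With FPKM the cap held calls in both directions, at shares near or below those of all tested genes (36.8% higher and 31.8% lower). With TPM all tested genes gave 22.2% and 47.8%, and with the length and GC trend removed 28.8% and 30%. Of its 17 genes 6 were higher and 4 lower, with a median of 0.05, whereas with TPM 5 were higher and 10 lower (median -0.17), and with the length and GC trend removed 4 were higher and 8 lower (median -0.07). The lid subunit PSMD13 rose most, from 67.8 and 69.3 FPKM to 94.5 FPKM in both knockdown control libraries (0.46 ± 0.04, limma adjusted p = 7.95e-07). The ubiquitin receptor PSMD4 (0.37 ± 0.04), the ATPases PSMC3 (0.35 ± 0.05) and PSMC4 (0.22 ± 0.04), the scaffold PSMD2 (0.33 ± 0.03) and PSMD8 (0.30 ± 0.03) were also higher, though PSMC4 and PSMD8 were called lower with the trend removed (-0.15 and -0.12). PSMC6 fell from 25.2 and 26.7 FPKM to 17.7 and 17.4 FPKM (-0.54 ± 0.06, limma adjusted p = 6.49e-06). PSMD1 (-0.38 ± 0.05), PSMD11 (-0.28 ± 0.04) and PSMD12 (-0.28 ± 0.05) were lower too, and PSMD12 changed sign to 0.05 with the trend removed. The deubiquitinase PSMD14 was not called, with 97.8 and 106 FPKM and then 97.6 and 99.9 FPKM (-0.04 ± 0.04, limma adjusted p = 0.392).

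Of the 7 chaperones 5 were higher and 1 lower, whereas with TPM 0 were higher and 1 lower. All tested genes gave 36.8% higher and 31.8% lower with FPKM, and 22.2% and 47.8% with TPM. PSMG2 (0.36 ± 0.07), PSMG1 (0.32 ± 0.06), PSMD9 (0.32 ± 0.07), PSMG3 (0.29 ± 0.09) and PSMD10 (0.20 ± 0.05) were higher, though PSMG3 was not called without vector control replicate 1 (0.19, limma adjusted p = 0.129) or knockdown control replicate 2 (0.24, limma adjusted p = 0.0861). PSMD5 was the exception, falling from 31 and 30.3 FPKM to 19.5 and 22.9 FPKM (-0.52 ± 0.07, limma adjusted p = 4.54e-05). PSMG4 had 0.24 ± 0.10 and did not pass (limma adjusted p = 0.0533), but passed with the trend removed (0.30, limma adjusted p = 0.0187) and without either overexpression library (limma adjusted p = 0.0399 and 0.0391). PSMF1 had 0.01 ± 0.05 (limma adjusted p = 0.83) and was not stable in direction: it had -0.05 with median-of-ratios scaling, -0.20 with TPM (limma adjusted p = 0.00618) and 0.22 with the length and GC trend removed (limma adjusted p = 0.00423).

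Gene length moved with this comparison. The 28 genes called higher had lengths from 762 to 4528 bases with a median of 1440, and the 7 called lower from 3381 to 7194 bases with a median of 3850, close to the median of 3868 over all tested genes. Across genes, the Spearman coefficient of the log2 fold change with length was -0.64 over the 44 genes and -0.52 over all 10648, and with GC content 0.46 and 0.52. These coefficients describe genes of the same libraries, which are not independent. The core genes are also shorter than the cap genes, with median lengths of 1114 and 1754 bases.

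**Figure D3:**
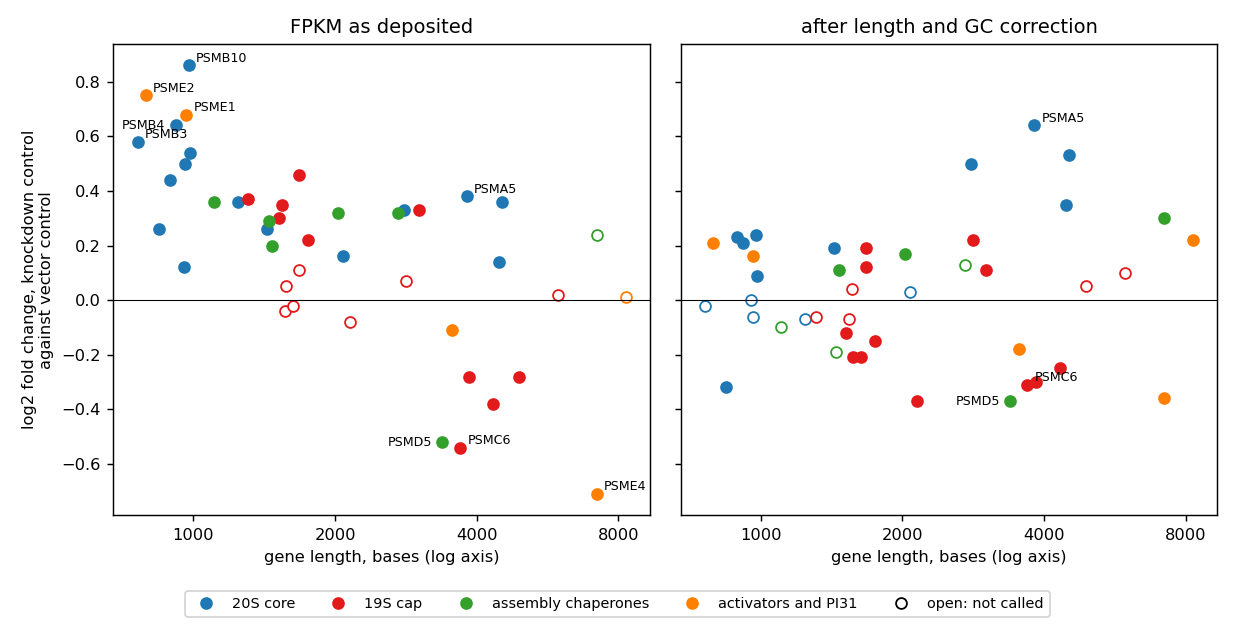
Each point is a tested proteasome gene, placed by its length in bases (log axis) and its log2 fold change in the knockdown control against the vector control, with FPKM as deposited on the left and after removal of the length and GC trend on the right; filled points were called. On the left the genes called higher are mostly short, PSME4 is lowest, and PSMF1, PSMG4 and PSMC1, also among the longest, lie at 0.01, 0.24 and 0.02; on the right the core genes PSMA5, PSMB2 and PSMA6 are the highest, and PSMC6 and PSMD5 remain below 0.

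Core and cap transcripts can be set against each other within a library, where the scaling of the library drops out. Summed over the 14 constitutive core genes, the vector control had 1774 and 1842 FPKM, overexpression 1849 and 1900, the knockdown control 2412 and 2437, and knockdown 2332 and 2288 FPKM. The 17 cap genes summed to 1631 and 1689, 1665 and 1680, 1845 and 1819, and 1840 and 1805 FPKM in the same order. The ratio of core to cap was 1.09 in both vector control libraries, 1.11 and 1.13 with overexpression, 1.31 and 1.34 in the knockdown control and 1.27 in both knockdown libraries. The 4 libraries of the knockdown arm were thus all above the other 4, and knockdown lay below its control. These sums are dominated by the more abundant genes and were not tested; since core genes are shorter, the ratio moves with the length trend described above. All proteasome genes together held 1.06% ± 0.011 of the summed FPKM in the vector control, 1.08% ± 0.0033 with overexpression, 1.12% ± 0.0048 in the knockdown control and 1.12% ± 0.0076 with knockdown.

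**Figure D4:**
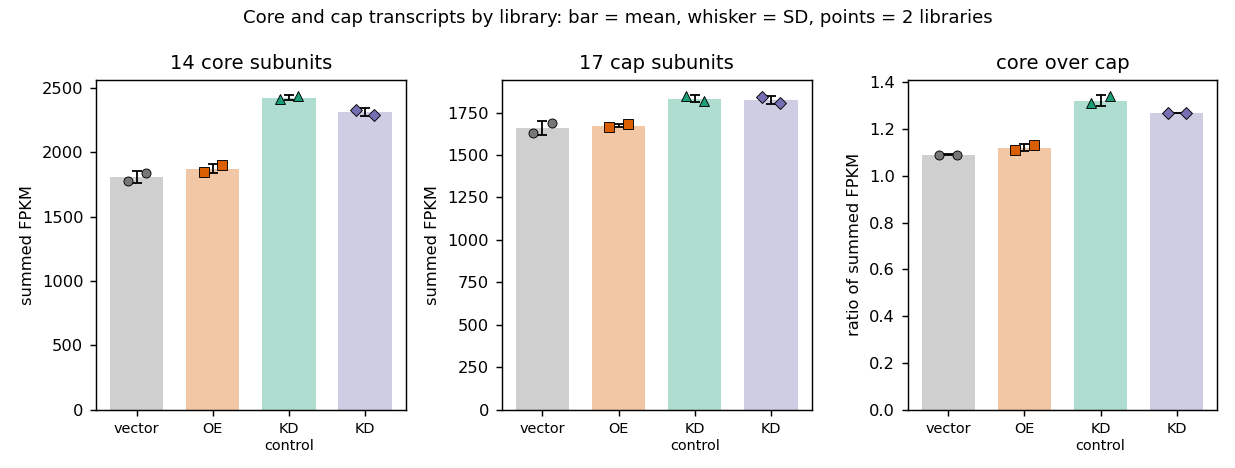
Summed FPKM of the 14 constitutive core genes and of the 17 cap genes, and the ratio of the sums, for each group; bars are means, whiskers SD and points the 2 libraries (OE, overexpression; KD, knockdown). The ratio is 1.09 in both vector control libraries and between 1.27 and 1.34 in the 4 libraries of the knockdown arm.

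The knockdown libraries also differed from the vector control in most proteasome genes. This comparison called 36 of 44 genes, 29 higher and 7 lower, where 62.9% of all tested genes were called (34.1% higher and 28.8% lower). The 14 constitutive core genes were again called higher (median 0.31), whereas with TPM 9 were higher and 0 lower, and with the length and GC trend removed 8 were higher and 1 lower. The cap had 7 higher and 4 lower of 17, and with TPM 3 higher and 8 lower. Over the 44 genes TPM gave 18 higher and 12 lower, against 20.1% and 42.9% of all tested genes, and the fit with the length and GC trend removed 14 higher and 10 lower, against 28% and 27%. PSMB10 remained above the vector control by 0.50 ± 0.06, PSME1 by 0.43 ± 0.05 and PSME2 by 0.40 ± 0.05 (limma adjusted p = 2.44e-05, 7.51e-06 and 1.30e-05), but with the length and GC trend removed their values were 0.06, 0.06 and 0.01 and none was called. PSMB4 was the largest, at 0.61 ± 0.03 (limma adjusted p = 7.32e-08), and PSME4 the lowest, at -0.49 ± 0.06 (limma adjusted p = 3.06e-05). With the trend removed they had 0.29 and -0.24, and PSMA5 (0.50) and PSMC6 (-0.30) were the extremes among the 44. PSMD12 was not called without vector control replicate 1 or knockdown replicate 2 (-0.14 and -0.14, limma adjusted p = 0.0632 and 0.075). PSMD11 was not called without vector control replicate 2 or knockdown replicate 2 (-0.12 and -0.09, limma adjusted p = 0.0657 and 0.122), nor was PSME3 without knockdown replicate 1 (-0.11, limma adjusted p = 0.0842). Calls were also lost for PSMA3, PSMC2 and PSMG3 without knockdown replicate 1 (0.12, 0.11 and 0.21, limma adjusted p = 0.057, 0.134 and 0.0785), for PSMA1 without knockdown replicate 2 (0.11, limma adjusted p = 0.0589), for PSMC2 without vector control replicate 2 (0.13, limma adjusted p = 0.0805) and for PSMG3 without vector control replicate 1 (0.23, limma adjusted p = 0.0705). The comparisons of knockdown control and knockdown with the vector control share the vector libraries, and the comparisons with the knockdown control share the control libraries, so their values are given side by side only.

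Other genes of the ubiquitin and proteasome pathway were examined as a list of 35, all of which were tested. Overexpression changed 0 of 35, where 0.0657% of all tested genes were called. The smallest limma adjusted p, 0.487, was that of RPS27A (0.12 ± 0.04), which encodes ubiquitin fused to a ribosomal protein. Knockdown against its control called 4 higher and 4 lower, near the shares over all tested genes (11.3% and 10.9%), so the genes named next are a description and not a result about the pathway. The lower genes included SEM1 (-0.24 ± 0.06), a small cap subunit whose symbol lies outside the naming rule, the ubiquitin gene RPS27A (-0.20 ± 0.04), and FBXW7 (-0.32 ± 0.09), a substrate receptor of an ubiquitin ligase. The higher ones were UCHL5 (0.22 ± 0.07) and UBE3C (0.18 ± 0.05), which act on ubiquitin at the proteasome, and the shuttle factors UBQLN1 (0.15 ± 0.05) and UBQLN2 (0.18 ± 0.06). The limma adjusted p-values of the 8 called genes ran from 0.00354 to 0.049.

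Genes called for the difference between the effects included SEM1 (0.34 ± 0.08) and RPS27A (0.33 ± 0.06). Between the controls 10 of 35 were higher and 17 lower, with a median of -0.11, where 36.8% and 31.8% of all tested genes were called. With TPM 7 were higher and 25 lower (22.2% and 47.8% of all tested genes), and with the length and GC trend removed 9 higher and 14 lower of 34 (28.8% and 30%). Against the vector control knockdown had 11 higher and 14 lower (34.1% and 28.8% of all tested genes), with TPM 6 and 19 (20.1% and 42.9%), and with the trend removed 13 and 12 of 34 (28% and 27%). POMP, which helps the core mature, rose between the controls by 0.33 ± 0.04, the cap receptor ADRM1 by 0.38 ± 0.05 and SEM1 by 0.55 ± 0.06. NFE2L1 did not pass in any comparison; it had 73.6 and 75.0 FPKM in the vector control, 72.8 and 71.1 with overexpression, 81.7 and 76.2 FPKM in the control of the knockdown, and 78 and 80.1 FPKM after it. Between the controls NFE2L2, a related factor, fell (-0.51 ± 0.06, limma adjusted p = 5.78e-06), as did KEAP1, its inhibitor (-0.23 ± 0.04, limma adjusted p = 0.000494). ECPAS, a scaffold that binds the proteasome, differed by -0.66 ± 0.05 (limma adjusted p = 6.75e-07). Values of these single genes between the controls are from FPKM, and those with TPM or the trend removed are not given here. Gene length moved with this comparison, and POMP, ADRM1, SEM1 and ECPAS are 1338, 2336, 1663 and 8439 bases long.

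Some of these values carry uncertainty from counting. Of the 45 genes 17 share exonic bases with a gene on the opposite strand, the largest overlap being 4671 bases between PSMC1 and NRDE2, and the sources used here do not give the use of strand. PSME1 shares 9 bases with EMC9, and PSME2 shares 216 bases with RNF31. Named pseudogene copies exist for 12 of the 45, with 13 copies for PSMC1, 4 for PSMA6, 2 for PSME2 and 1 for PSMB7, and reads could be split between a gene and its copies.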

How the data were processed

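The authors deposited FPKM values of 17056 genes in 8 RNA-seq libraries of total RNA. Listed in the submitters' processing notes are build hg38 (GRCh38), R 3.2.0, HISAT2, HTSeq and featureCounts, with no role for each. The sources used here give no annotation, strand or filters. Groups came from sample titles and genotypes, columns from their names. FPKM values are whole multiples of a read's worth, which gave whole reads for all 17056 genes (tolerance 0.02 reads), whole lengths for 99.7% of genes above 0 in every library (tolerance 0.05 bases), and library totals. Differences were tested in R 4.3.3 with limma 3.58.1 (eBayes with trend, two-sided) on log2(FPKM + 1), which understates changes of low genes, for the 10648 genes whose mean reached 1 FPKM. All 4 groups entered the fit (4 residual degrees of freedom). Calls used a Benjamini-Hochberg adjusted p below 0.05 over all genes tested. With 2 libraries a group, no exact permutation test can reach that threshold. The length and GC correction removed splines with 4 degrees of freedom from each library, with GC content from GENCODE 29, available for 98% of tested genes. Scripts were tested on simulated data. The genes, lists and naming rule were chosen with earlier results of these data known: called genes, the extremes of each class, and PSMB10, PSME1 and PSME2 throughout. Alternatives were a pseudocount of 0.1, no filter, a minimum mean of 5 FPKM, 2 other scalings, the compared libraries alone, a replicate block, voom, and leaving out each library. A fit without both knockdown control libraries was added after seeing the data.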

Additional observations from a re-analysis of the deposited data

Results flagged for a closer look

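The overexpression effect and the knockdown effect differed for 7 of 44 proteasome genes, where 10.2% of all tested genes were called. This was the interaction test (limma, Benjamini-Hochberg adjusted over 10648 genes), and values are log2, the first effect minus the second. The interferon-inducible core gene PSMB10 had 0.66 (adjusted p = 0.000639), the PA28 genes PSME2 and PSME1 0.56 (adjusted p = 0.00021) and 0.35 (adjusted p = 0.00549), and the cutting subunit PSMB7 0.32 (adjusted p = 0.00291). PSMD2 had 0.17 (adjusted p = 0.0371), PSMA7 0.17 (adjusted p = 0.0484) and PSMD1 -0.24 (adjusted p = 0.0392). The calls of PSMD2, PSMA7 and PSMD1 were near the threshold. As given above, they were lost in most or all of the fits without 1 library, while the value of PSMD2 stayed at 0.17 to 0.18. With the length and GC trend removed PSMA7 had -0.01. For PSMB10, PSME1, PSME2, PSMD2 and PSMA7 both overexpression libraries were above the vector control and both knockdown libraries below the knockdown control, for PSMD1 the reverse held, and for PSMB7 the overexpression and vector control libraries overlapped.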

How the results depend on the processing

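Under overexpression 0 of 44 genes were called in each alternative run, including the fit without both knockdown control libraries, which was chosen after seeing the data and in which 36 of 44 were again called for knockdown against the vector control. The share of all tested genes called in that fit is not given here, so the 36 is not set against a background. Leaving out 1 library in turn kept the direction of the genes called for knockdown against its control and for the difference between the effects. Some of these calls were lost, as given above. With the length and GC trend removed, the difference had 4 calls, both without and with the replicate block. Knockdown against the vector control then had 24 and 23. Without the block 7.42% of all tested genes were called for the difference, and 28% higher and 27% lower for knockdown against the vector control. The labels do not say that the replicate numbers pair the libraries, and the correlations of their deviations between groups were between -0.06 and 0.06. With the replicate block alone, calls numbered 0 for overexpression, 10 for knockdown and 6 for their difference. The knockdown control and knockdown, each against the vector control, had 36 and 36. In the main fit the shares of all tested genes called were 0.0657%, 22.2%, 10.2%, 68.6% and 62.9% in this order. Values that changed sign were mostly near 0. With the length and GC trend removed (the same values with the block), PSMA7 had 0.08 for knockdown against its control, -0.01 for the difference and -0.06 for the knockdown control against the vector control; PSMB3 had -0.02 and PSMD12 0.05 in the last of these, and PSMD12 had 0.05 and PSMF1 0.08 for knockdown against the vector control. PSMF1 in the knockdown control against the vector control had -0.05 with median-of-ratios scaling, -0.20 with TPM, 0.22 with the length and GC trend removed, and -0.01 without vector control replicate 2 or knockdown control replicate 1. PSMG3 ranged from -0.16 to 0.06 over the fits without 1 library under overexpression (0.00 without overexpression replicate 2), and from -0.23 to 0.04 for the difference (0.01 without vector control replicate 2). For these values the cause was not tested. Of the other values of single genes, 1269 kept direction and side of the threshold, 85 lost the call and 8 gained it. With 1 library left in a group, that library is assumed to vary like the others. Each tested proteasome gene had at least 280 reads in every library, and the 2 libraries in a group limit the precision.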
